A study of Mus musculus with 2 samples.

Results

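Macrophages that express the C1q genes were described in single-cell RNA-seq of dissociated mouse olfactory epithelium, the lining of the nasal cavity in which odours are detected. In this assay (10x Genomics 3′ chemistry) each cell receives a barcode and each captured transcript a unique molecular identifier (UMI), so that expression is a count of UMIs per gene and barcode. A barcode was taken as a C1q macrophage if it had at least 3000 UMIs and 500 genes and at most 10% mitochondrial UMIs, if C1qa, C1qb and C1qc together made up at least 0.1% of its UMIs, if Omp (a protein of mature olfactory neurons) made up less than 0.1%, and if S100a8 and S100a9 (granule proteins of neutrophils) made up less than 2%. This picked 98 of 1944 quality-passing barcodes in the transgenic library and 38 of 1282 in the wild-type library, 136 of 3226 in all.

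The transgenic library came from 1 female mouse aged 9 weeks of the line Tg(Or8a1-OR1A1,-MAPT/mCherry)D736Feins/J with the genotype Tg(Or8a1-OR1A1,-MAPT/mCherry)D736Feins/+, whose construct name joins Or8a1 (a mouse odorant receptor gene), OR1A1 (a human odorant receptor), MAPT and the fluorescent protein mCherry. The wild-type library came from 1 female aged 8 weeks whose strain is given as a cross of 10G4-V2.2-#7/Jax with Bl6/129SF1/J. Transgene, strain, age and library therefore cannot be told apart in any difference between the 2 animals, and with 1 library per genotype no test between genotypes was possible. Intervals given below are 95% intervals that cover counting error only.

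C1q is the recognition subunit of the classical complement pathway. It is built from A, B and C chains, binds immune complexes and dying cells, and is made mainly by tissue macrophages rather than by blood monocytes. Macrophages of the olfactory epithelium and of the connective tissue beneath it are known for clearing dying sensory neurons, which are replaced throughout life. Tissue macrophages vary among themselves, and surface MHC class II, the complex that presents peptides to CD4 T cells, is commonly used to divide them.

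The genes of the B and C chains lie next to each other on chromosome 4, and C1qa lies beside them, in the order C1qb, C1qc, C1qa. The start regions of C1qb and C1qc are shown because their transcripts defined the cells, and that of Trem2, a lipid-binding receptor of macrophages, because it was a marker gene given with the rule. The sequences are from RefSeq, run 5′ to 3′ on the gene's own strand from 250 bases before to 50 bases after the annotated start, and belong to build GRCm38.p6, not to the build of the counts. C1qb is at chr4:136886151-136886450 on the minus strand, C1qc at chr4:136892865-136893164 on the minus strand and Trem2 at chr17:48346151-48346450 on the plus strand. Capitals mark the letters GAGGAA or, on the other strand, TTCCTC, the core of sites for PU.1, the transcription factor that macrophages depend on.
C1qb: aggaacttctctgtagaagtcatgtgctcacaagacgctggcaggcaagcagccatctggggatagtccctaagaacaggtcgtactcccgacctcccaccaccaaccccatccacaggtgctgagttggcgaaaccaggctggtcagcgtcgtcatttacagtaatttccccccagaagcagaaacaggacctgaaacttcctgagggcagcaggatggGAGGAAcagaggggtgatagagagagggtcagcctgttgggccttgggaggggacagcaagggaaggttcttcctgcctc
C1qc: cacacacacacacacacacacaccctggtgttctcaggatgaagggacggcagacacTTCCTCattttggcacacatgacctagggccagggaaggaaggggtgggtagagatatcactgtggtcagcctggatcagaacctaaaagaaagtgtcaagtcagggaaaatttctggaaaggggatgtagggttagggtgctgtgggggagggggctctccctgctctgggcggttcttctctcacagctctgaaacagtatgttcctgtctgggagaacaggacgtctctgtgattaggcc
Trem2: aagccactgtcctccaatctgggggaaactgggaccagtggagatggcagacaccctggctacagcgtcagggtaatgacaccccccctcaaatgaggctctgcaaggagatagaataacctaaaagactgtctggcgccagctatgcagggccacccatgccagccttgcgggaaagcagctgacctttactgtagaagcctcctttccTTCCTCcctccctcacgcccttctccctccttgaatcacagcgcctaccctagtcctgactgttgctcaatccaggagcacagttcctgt
The match lay 30 to 25 bases before the start of C1qb, 193 to 188 bases before that of C1qc and 40 to 35 bases before that of Trem2. The letters were held by 28.3% of 32851 promoters, on either strand, so a match in 1 window is common. The MAF letters TGCTGA, held by 19.5% of promoters, were found in C1qb and not in C1qc or Trem2, 131 to 126 bases before its start. The letters TGANTCA, held by 7.81% of promoters, were found in Trem2, 9 to 3 bases before its start, and CACGTG, held by 7.15%, in none of these 3 windows. Of the other start regions searched, that of Ms4a7 held GAGGAA 43 to 48 bases after 1 of its 2 annotated starts. Ms4a7 also held TGANTCA, 81 to 75 bases before its other annotated start. The start region of Serinc3 held none of the 4 motifs. A match is a description of the letters, and binding was not measured.

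The share of C1q macrophages was 5.04% of quality-passing barcodes (4.11 to 6.11%, exact binomial interval) in the transgenic library and 2.96% (2.11 to 4.05%) in the wild-type library. The libraries differed in the other myeloid cells as well, with 14 monocyte-type and 26 neutrophil-type barcodes in the transgenic library and 75 and 111 in wild type. The transgenic library held 70572741 UMIs in all barcodes and the wild-type library 55701219. The macrophages had a median of 8665.5 UMIs and 2676 genes in the transgenic library, against 8428.5 UMIs and 2845 genes in wild type, with median mitochondrial shares of 4.97% and 6.13%. No barcode sequence of a macrophage occurred in both libraries.

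The values that chose the cells are given as a description. C1qa, C1qb and C1qc together made up 0.112% of UMIs in the lowest transgenic macrophage, 1.43% in the median one and 2.69% in the highest, against 0.101%, 1.40% and 2.32% in wild type. In all, 78 of 98 transgenic and 30 of 38 wild-type macrophages were at 1% or more. Of the other quality-passing barcodes, 90.3% in the transgenic library and 92.0% in wild type had no C1q UMI. Few barcodes lay near the limit of 0.1%: 7 transgenic and 4 wild-type macrophages had 0.1 to 0.3%, and 1 transgenic and 6 wild-type barcodes had 0.05 to 0.1%, the highest of them at 0.0891% and 0.0898%. Of the barcodes that met the limit on C1q, 1 in each library was removed by the limits on Omp or S100a8 and S100a9.

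A few of the macrophage barcodes carried much RNA of other cells, and values are given with and without them where they matter. In wild type 2 barcodes held 87236 and 85434 UMIs, while no other macrophage exceeded 23469, and together they held 32.9% of the UMIs of the wild-type macrophages. The first had 37759 UMIs of Obp2a, an odorant-binding protein of nasal glands, and 8826 of the lipocalin Lcn3, or 53.4% of its UMIs. The second had 76 UMIs of the basal cell keratin Krt5, 518 of the sustentacular cell enzyme Cyp2g1 and 86 of the fibroblast proteoglycan Dcn. In the transgenic library 3 barcodes with 21, 22 and 116 UMIs of odorant receptors also had the neuronal genes Fstl5, Ncam1 and Stmn2, and they lay near the C1q limit, at 0.114%, 0.118% and 0.146%. Wild-type levels below are sums over all 38 macrophages unless the 36 are named, with the sum over the 36 macrophages without the 2 deep barcodes in parentheses for most genes.

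The label of a C1q-expressing macrophage held for the marker genes that the rule did not use as sums per library, but not in every barcode. Levels are in CPM, a gene's share of all UMIs summed over the macrophages of a library, scaled to a common total. Ms4a7, a membrane protein of the MS4A family found on tissue macrophages, had 1067 CPM in transgenic and 628 in wild-type macrophages (853 CPM in the 36). Trem2 had 1027 CPM in transgenic and 483 in wild-type macrophages (691 CPM in the 36). Csf1r, the receptor for the survival factors CSF1 and IL-34, had 1275 CPM and 971 CPM (1371 CPM in the 36), in the same order. At least 1 UMI was found for Trem2 in 92.9% of transgenic and 83.3% of the 36 wild-type macrophages, against 14.3% and 21.3% of monocyte-type barcodes, and 0 of 26 (which allows up to 11.5%) and 2.70% of neutrophil-type barcodes. In monocyte-type barcodes Trem2 had 3 UMIs in the transgenic library and 21 UMIs (14.6 CPM) in wild type. Csf1r was found in 78.6% and 86.7% of them, at 288 CPM and 272 CPM, so it was shared between the populations and lower there than in the macrophages. All 18 genes of the macrophage identity list, among them Adgre1 (F4/80), Cd68, Mertk and Aif1, were measured, which here means at least 20 CPM and 50 UMIs in 1 library.

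**Figure D1:**
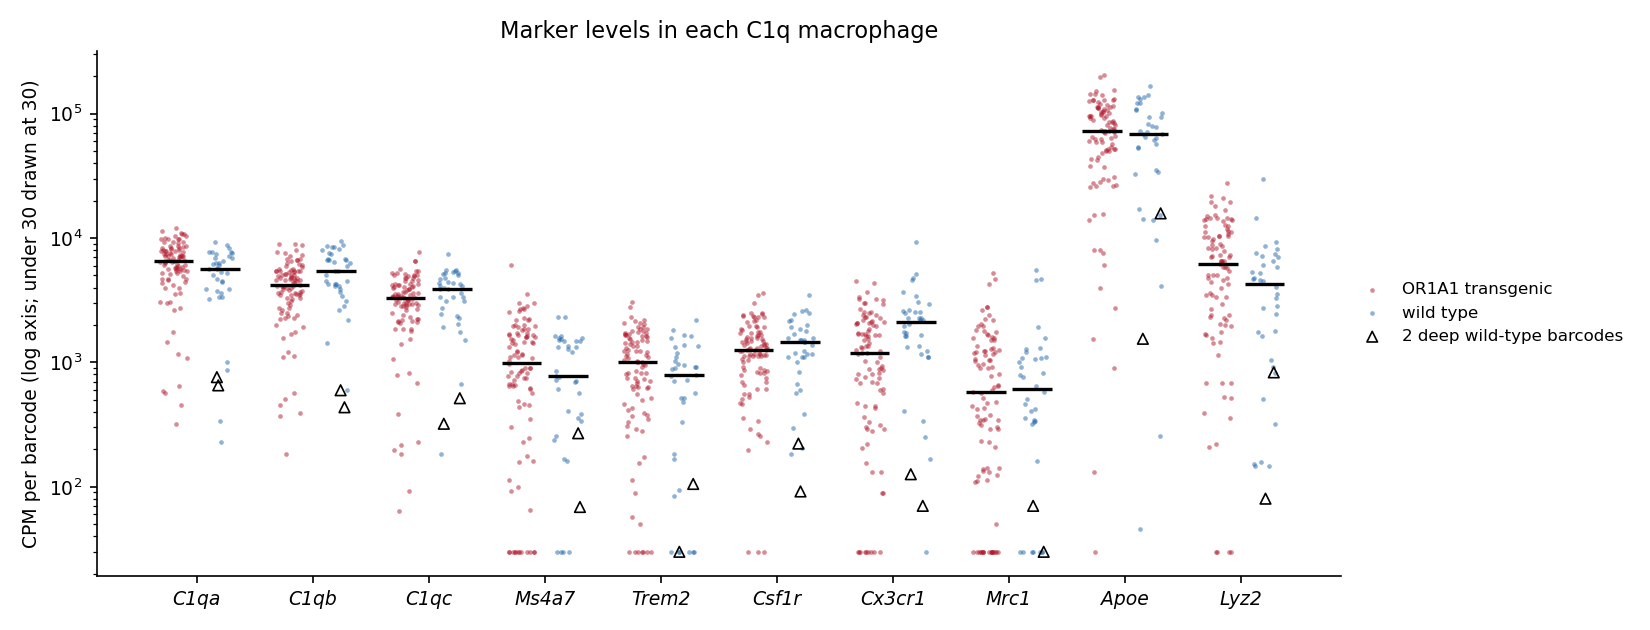
Level of 10 macrophage genes in each barcode, in CPM on a log axis (values under 30 CPM are drawn at 30), with the 98 transgenic barcodes in red on the left of each pair and the 38 wild-type barcodes in blue on the right. Triangles are the 2 deep wild-type barcodes and bars are medians without them; the medians of Trem2, for example, are 1002 CPM in transgenic and 786 in wild-type macrophages.

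Genes that set the macrophages apart from the rest of the tissue are given without a test, since C1q chose the cells. Genes at 200 CPM or more in both libraries were ranked by the smaller of their ratios in the 2 libraries. The chemokine Ccl12 had the largest ratio to the other quality-passing barcodes, 2555-fold in the transgenic library and 3079-fold in wild type. C1qa, C1qb and C1qc followed. Next came Fcrls, an Fc receptor-like gene known from mouse microglia, at 902-fold and 896-fold. The complement receptor C3ar1 (1404-fold and 316-fold), the lysophosphatidylserine receptor Gpr34 (269-fold and 204-fold) and the mannose receptor Mrc1 (438-fold and 190-fold) belonged to the same 20 genes. So did the fractalkine receptor Cx3cr1 (623-fold and 94.4-fold) and the endocytic receptor Stab1 (56.7-fold and 33.6-fold). Apoe, the lipid carrier, was 74.5-fold and 50.7-fold higher than in the other barcodes and alone made up 70635 CPM of transgenic and 45136 CPM of wild-type macrophage UMIs (63083 CPM in the 36).

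Several of these genes were near 0 in the nearest myeloid populations. C3ar1 had 0 CPM in transgenic and 2.08 in wild-type monocyte-type barcodes, and Mertk, a receptor for dying cells, 0 and 2.77 CPM. In the macrophages C3ar1 had 313 CPM in transgenic and 227 in wild type (330 CPM in the 36), and Mertk 167 CPM and 113 CPM (162 CPM in the 36). Ccl12 had no UMI in transgenic and 0.693 CPM in wild-type monocyte-type barcodes. The monocyte chemokine receptor Ccr2 ran the other way, with 84.9 CPM in transgenic and 120 in wild-type macrophages (179 CPM in the 36), against 851 CPM and 978 CPM in monocyte-type barcodes, which were chosen in part by Ccr2. Ly6c2, a surface protein of classical monocytes, had no UMI in the macrophages of either library.

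Of 14 genes described in microglia 12 were measured in the macrophages, and of 15 described in Lyve1-type resident macrophages of vessels and serosa 8. Without the 2 deep wild-type barcodes these counts were 12 and 7. P2ry12, a purine receptor of microglia, had 207 CPM in transgenic and 172 in wild-type macrophages (247 CPM in the 36), and Tmem119, another microglial surface gene, 124 CPM and 85.8 CPM (119 CPM in the 36). Sall1, a transcription factor that microglia depend on, had 11.8 CPM and 9.54 CPM, and no UMI in the 36. Of the second list, Mrc1 had 852 CPM in transgenic and 694 in wild-type macrophages (1018 CPM in the 36, the opposite order), and the chemokine Pf4 717 CPM and 381 CPM (569 CPM in the 36). Lyve1, a hyaluronan receptor, had 23.6 CPM and 1.91 CPM (2.84 CPM in the 36), the folate receptor gene Folr2 44.1 CPM and 21.0 CPM (31.3 CPM in the 36), and the haemoglobin scavenger receptor Cd163 27.9 CPM and 7.63 CPM (11.4 CPM in the 36). Timd4, a phosphatidylserine receptor, was not detected in either library.

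Levels of gene pairs were set against each other across cells as a description. The cells were chosen on the sum of the 3 C1q genes, and barcodes near that limit are low in all of them. Spearman's rho across cells between C1qa and C1qb was 0.77 in 98 transgenic and 0.71 in 36 wild-type macrophages. It was 0.66 and 0.72 for C1qa and C1qc, and 0.70 and 0.70 for C1qb and C1qc. Apoe and Trem2 gave 0.58 and 0.76, and the C1q sum and Apoe 0.42 and 0.55. Cells of 1 library share its free RNA and the depth of each cell enters both values.

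Genes that varied most among cells beyond counting error, after each cell was thinned to 3000 UMIs, were Apoe, Cd74, H2-Aa, H2-Eb1, H2-Ab1, Ccl4, Malat1, Il1b, Lyz2, Ccl7, Ctsd, Jun, Ccl12, Tmsb4x and Ccl3. For Apoe the variance was 81.2 times the mean in transgenic and 94.6 times in wild-type macrophages, against 1 for counting error alone. The level of Apoe ran from no UMI through a median of 7.26% to 20.6% of UMIs in transgenic cells, and from 0.00461% through 6.87% to 16.8% in the 36 wild-type cells. Of these 15 genes, 4 encode MHC class II: Cd74 is the invariant chain, and H2-Aa, H2-Ab1 and H2-Eb1 are chains of the peptide-binding molecule. The variance of Cd74 was 70.4 times the mean in transgenic and 52.9 times in wild-type cells.

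The summed share of the 4 MHC class II genes separated macrophages with and without them, and the cells were divided at 0.5% of UMIs after these values had been seen. By this limit 28 of 98 transgenic macrophages (28.6%, 19.9 to 38.6%) and 18 of 38 wild-type macrophages (47.4%, 31.0 to 64.2%) were MHC class II-high, or 16 of 36 (44.4%, 27.9 to 61.9%) without the deep barcodes. The intervals overlapped. The median share was 4.52% of UMIs in high transgenic and 4.65% in high wild-type cells, while 25 transgenic and 11 wild-type macrophages had no UMI of the 4 genes. A class made by a limit on a score is a range and not a cell type: 9 transgenic and 4 wild-type macrophages had shares from 0.25% to 1%.

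**Figure D2:**
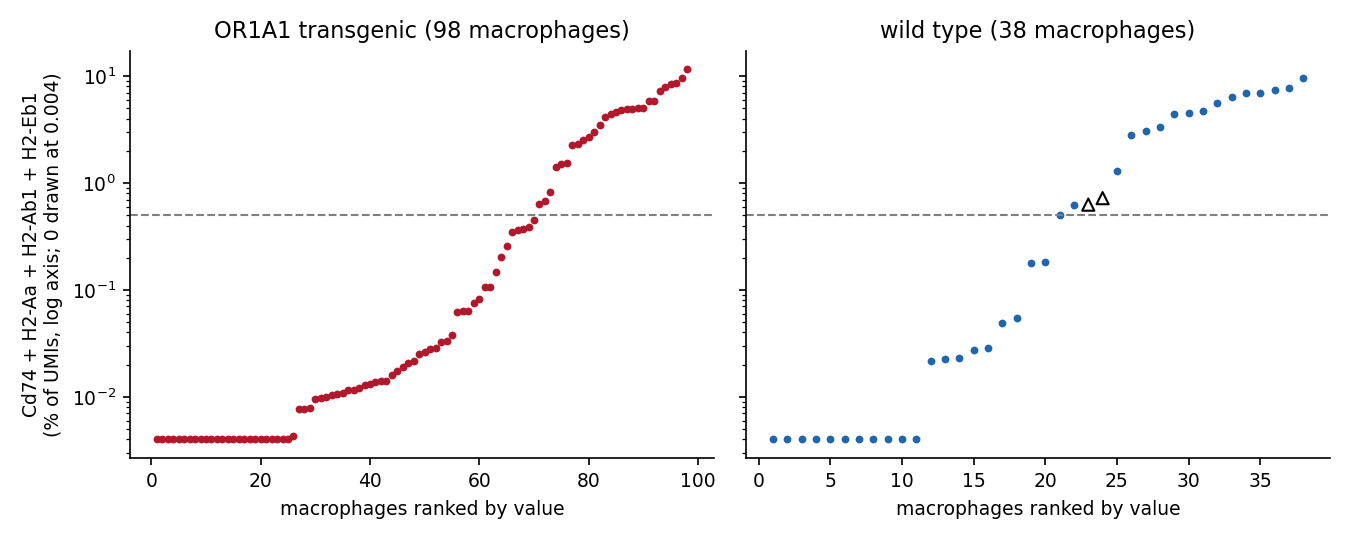
Share of UMIs from Cd74, H2-Aa, H2-Ab1 and H2-Eb1 (percent, log axis, cells without a UMI drawn at 0.004) for macrophages ranked from low to high, transgenic in red and wild type in blue. The dashed line is the limit of 0.5%, above which 28 of 98 transgenic and 18 of 38 wild-type macrophages lie, and few cells lie close to it.

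MHC class II-high and low macrophages were compared within each library, with the 36 wild-type barcodes and without the 4 splitting genes. These genes of the same cells are not independent of the split, so no test was made, and the second library is the only repeat. Of 518 genes measured in both libraries, 15 were at least 2-fold higher in high cells in both (2.9%) and 12 at least 2-fold lower in both (2.32%). The median log2 ratio of high over low cells over the 518 genes was 0.055 in the transgenic library and 0.14 in wild type. A further 3 genes, Ccl2, Ly6e and S100a6, were past 2-fold in opposite directions in the libraries.

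Genes higher in high cells included further parts of antigen loading. Of 3 further MHC class II presentation genes measured, 2 were higher in both libraries, against 2.9% of all 518 genes. Tnip3, an inhibitor of NF-kB signalling, had 586 CPM in high and 1.49 CPM in low transgenic cells, and in wild type 459 CPM in high cells against no UMI in low cells, at least 24.1-fold (against 3 UMIs over the low cells). Ccr2 had 274 CPM in high and 11.9 CPM in low transgenic cells, and 325 CPM against no UMI in wild type, at least 17.1-fold. Both genes were at or near 0 in low cells of both libraries. Ccr2 rested on few cells, with a UMI in 16 of 98 transgenic and 4 of 36 wild-type macrophages. Of its 63 UMIs in high wild-type cells, 12 came from a barcode at 0.101% C1q and 20 from another at 0.243%, near the C1q limit. A high transgenic barcode at 0.161% C1q had 19. Ccr2 was the 1 gene of 3 measured monocyte genes that was higher in both, since F13a1 had log2 ratios of -0.71 in transgenic and 1.13 in wild-type cells and S100a6 of -1.37 and 4.08. H2-DMa and H2-DMb1, which load peptides onto MHC class II, had 706 and 632 CPM in high against 198 and 70.0 CPM in low transgenic cells, and 753 and 402 CPM against 165 and 76.1 CPM in wild type. Mgl2, a galactose-type lectin of macrophages and dendritic cells, had 197 CPM in high and 22.4 CPM in low transgenic cells, and 645 CPM and 6.34 CPM in wild type. The chemokine Ccl4 had 2541 CPM in high and 1106 CPM in low transgenic cells, and 2853 CPM and 1077 CPM in wild type. The remaining 9 were Plbd1, Lsp1, Fxyd5, Cd52, Vim, Etv3, Rps26, Rplp0 and Rpl36a, and counts of the last 3 can be shared with ribosomal pseudogenes. These 3 were not alone: the other measured genes named Rpl or Rps also had positive log2 ratios in both libraries, apart from Rpl36al (-0.21 and 0.90). Rps24, for example, had 0.89 in transgenic and 1.22 in wild-type cells. The cause of this shift was not tested.

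Genes lower in high cells included 2 of 6 measured microglia-type genes, P2ry12 and Fcrls, and 3 of 23 measured lysosomal genes, against 2.32% of all 518. P2ry12 had 42.4 CPM in high and 271 CPM in low transgenic cells (log2 ratio -2.56), and 113 CPM and 412 CPM in wild type (-1.82). Fcrls had 166 CPM in high and 933 CPM in low transgenic cells, and 475 CPM and 1401 CPM in wild type. Stab1 had 131 CPM in high and 527 CPM in low transgenic cells, and 299 CPM and 900 CPM in wild type. Of the other microglia-type genes, Tgfbr1, a TGF-beta receptor, had log2 ratios of 0.37 and -0.87. Ctsd, a protease of the lysosome, had 1654 CPM in high and 4948 CPM in low transgenic cells (log2 ratio -1.58), and 1604 CPM and 5964 CPM in wild type (-1.89). The cysteine proteases Ctsl and Lgmn were the other lysosomal genes at least 2-fold lower in both libraries, and none was higher. The lysosomal list's median log2 ratio was -0.45 in transgenic and -0.60 in wild-type cells. Other genes lower in both included Pla2g15, a phospholipase of lysosomes, Timp2, an inhibitor of matrix proteases, Tmem86a, Ms4a6d and Sash1.

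**Figure D3:**
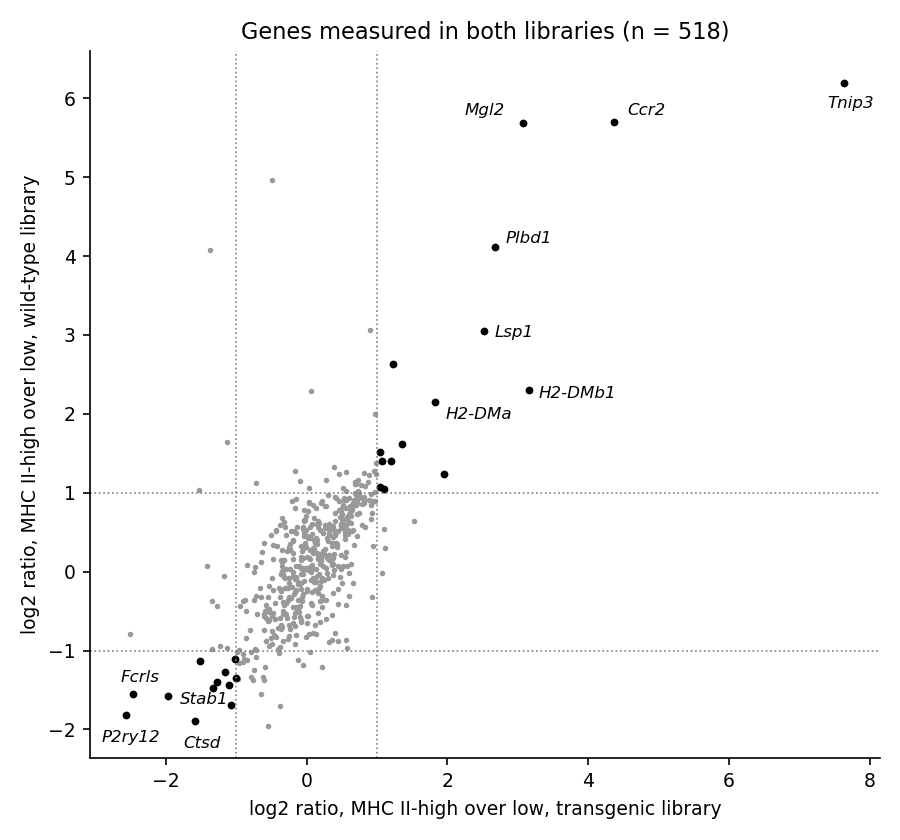
Log2 ratio of MHC class II-high over low macrophages for 518 genes, in the transgenic library on the horizontal axis and in the wild-type library on the vertical axis. Black points are the 15 genes higher and 12 genes lower by at least 2-fold in both libraries; Tnip3 lies far to the upper right and P2ry12, Ctsd and Fcrls to the lower left.

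The C1q genes and the identity list were not past 2-fold in both libraries. C1qa had 5432 CPM in high and 6240 CPM in low transgenic cells, and 3833 CPM and 6008 CPM in wild type. None of 16 measured identity genes was past 2-fold in the same direction in both libraries. Over all 518 genes 2.9% were higher and 2.32% lower in both. Spearman's rho between the C1q sum and the MHC class II share was -0.016 in transgenic and -0.27 in wild-type cells. Apoe had 50983 CPM in high and 78230 CPM in low transgenic cells, and 37502 CPM and 94513 CPM in wild type. Of 13 transgenic and 8 wild-type macrophages with Apoe under 20000 CPM, a limit chosen after these values were seen, 8 and 8 were MHC class II-high. The dendritic cell genes Flt3, Xcr1 and Ccr7 had no UMI in the macrophages of either library, and the 7 dendritic genes together came to 121 CPM in transgenic and 42.0 in wild-type macrophages (54.0 CPM in the 36), of which Siglech, also a microglial gene, made up 105 and 40.1 CPM. Their part in the split was not tested.

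Chemokines and cytokines were high in some macrophages and not detected in others. Il1b, the precursor of interleukin-1 beta, had a median of 1142 CPM per cell and a highest value of 24600 CPM in transgenic macrophages, with 25 of 98 cells at 0. In wild type its median was 605 CPM and its highest value 16722 CPM, with 13 of 36 cells at 0. The chemokine Ccl4 had 1506 CPM in transgenic and 1532 in wild-type macrophages (2056 CPM in the 36). Il1b was higher still in neutrophil-type barcodes, at 12811 CPM in the transgenic library and 2732 CPM in wild type. Immediate early genes, which tissue dissociation is known to induce, were also high in the summed macrophages. Whether they were high in the same cells as the cytokines was not tested. Fos had 5892 CPM in transgenic and 5062 in wild-type macrophages (6726 CPM in the 36, the opposite order), against 1196 CPM and 1039 CPM in the other barcodes. The immediate early list summed to 38127 CPM in transgenic and 31367 in wild-type macrophages (42459 CPM in the 36, again the opposite order). The list was also high in the other myeloid cells, at 17587 and 15406 CPM in monocyte-type and 19548 and 10406 CPM in neutrophil-type barcodes. Its part in the cytokine levels was not tested.

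Between the libraries, most measured genes of the macrophages were within 2-fold. Of 2894 measured genes, 136 were at least 2-fold higher (4.7%) and 58 at least 2-fold lower (2%) in transgenic macrophages, and the median log2 ratio of transgenic over wild type was 0.20. Without the 2 deep wild-type barcodes, 93 of 2858 genes were higher (3.25%) and 29 lower (1.01%), and the median was 0.0048. Of the genes ranked lower with all barcodes the first were Lcn3, Obp2a, the ribosomal pseudogene Rps18-ps6 and Cyp2a5, an enzyme of the nasal lining. Obp2a had 61.3 CPM in transgenic and 72138 in wild-type macrophages but 173 CPM in the 36, against which it was still at least 2-fold lower. Lcn3 had 7.52 CPM in transgenic and 16855 in wild-type macrophages but 28.4 CPM in the 36, too few UMIs to be measured there. Cyp2a5 had 54.8 CPM in transgenic and 1297 in wild-type macrophages but 28.4 CPM in the 36, the opposite order. The sustentacular list summed to 37.6 CPM in transgenic and 1110 in wild-type macrophages, but 17.1 CPM in the 36, the basal cell list to 3.22 and 257 CPM (2.84 in the 36), and the fibroblast list to 94.6 and 166 CPM (2.84 in the 36). The values that follow are log2 ratios against the 36 wild-type macrophages.

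**Figure D4:**
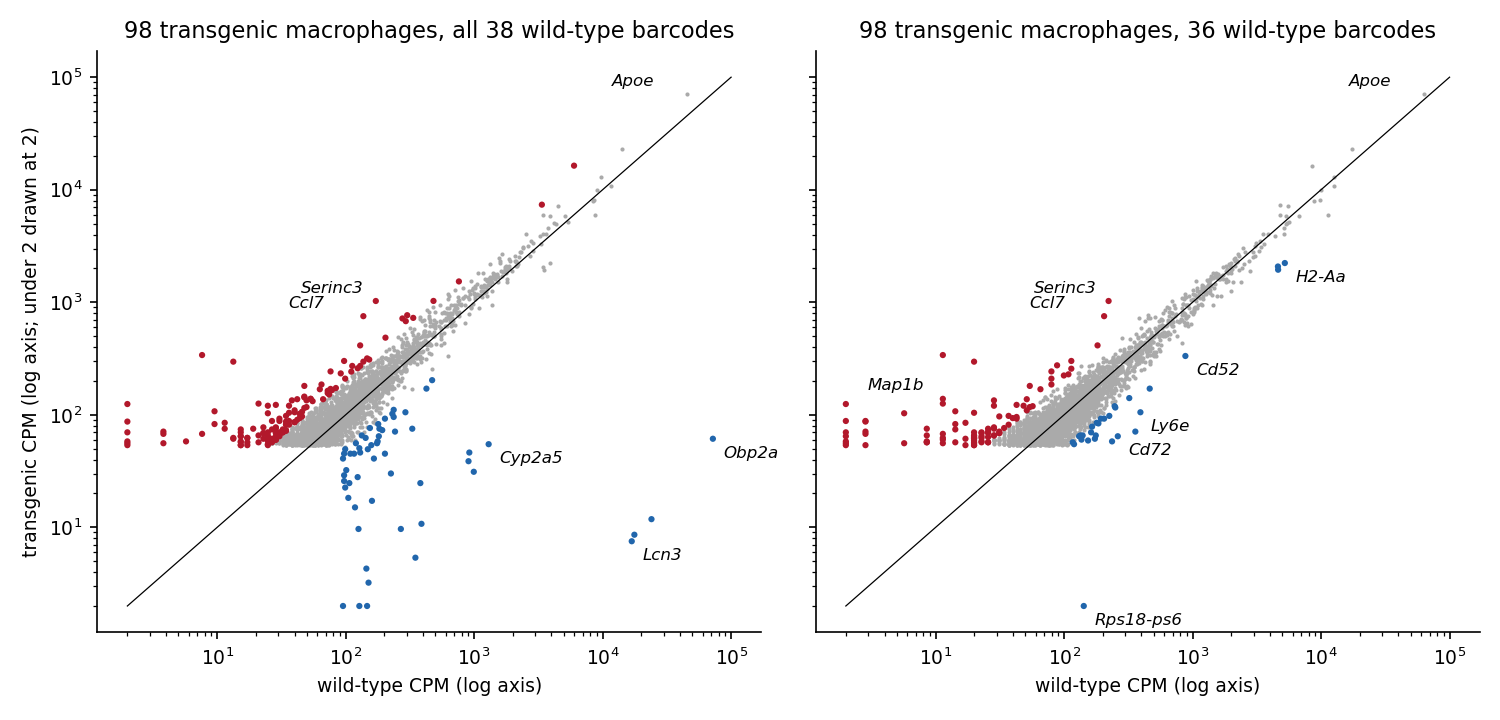
Summed level of each measured gene in transgenic macrophages (vertical axis) and wild-type macrophages (horizontal axis), in CPM on log axes, with all 38 wild-type barcodes on the left and the 36 without the deep barcodes on the right. Red genes are at least 2-fold higher and blue genes at least 2-fold lower in transgenic macrophages; Obp2a and Lcn3 leave the diagonal mainly on the left, and Serinc3 does so on both sides.

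Serinc3, a membrane protein of the serine incorporator family, had the most UMIs (955 in transgenic macrophages) of the 15 genes with the largest ratios towards transgenic macrophages. It had 1026 CPM in transgenic macrophages (962 to 1094 CPM) and 172 CPM in wild type (138 to 211 CPM), or 222 CPM (175 to 277 CPM) in the 36, a log2 ratio of 2.19 (1.86 to 2.54). Per cell its median was 1074 CPM and its highest value 2388 CPM in transgenic macrophages, with 1 of 98 at 0. In wild type the median was 225 CPM and the highest value 508 CPM, with 5 of 36 at 0, so the median transgenic cell was above each of these 36 wild-type cells, although the low ends overlapped. The difference was present in MHC class II-high cells (852 CPM in transgenic against 222 in wild type) and in low cells (1094 against 222 CPM). It was also seen in monocyte-type barcodes, with 533 CPM in the transgenic library and 101 CPM in wild type, less in neutrophil-type barcodes, with 176 and 95.1 CPM, and not in the remaining barcodes, with 142 and 184 CPM.

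**Figure D5:**
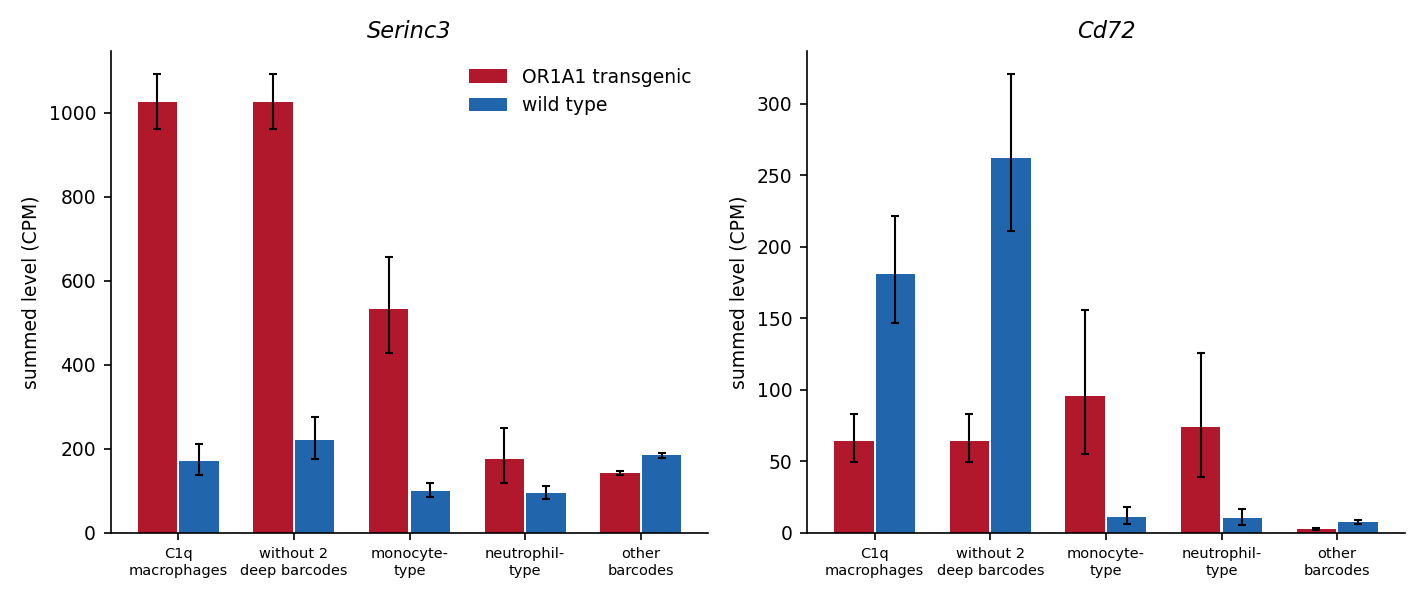
Summed level of Serinc3 and Cd72 in CPM with exact Poisson 95% intervals, transgenic in red and wild type in blue, in all C1q macrophages, in those without the 2 deep barcodes, and in monocyte-type, neutrophil-type and other barcodes. Serinc3 stands at 1026 CPM in transgenic and 172 in wild-type macrophages, and Cd72 at 64.5 CPM and 181 CPM, while in monocyte-type barcodes Cd72 runs the other way.

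Ccl7, a chemokine that attracts monocytes, had 752 CPM in transgenic and 137 in wild-type macrophages (205 CPM in the 36), a log2 ratio of 1.86 (1.51 to 2.23). It came from a minority of cells, with a UMI in 43 of 98 transgenic and 4 of 36 wild-type macrophages, so few wild-type cells carry the comparison. In neutrophil-type barcodes, which should lack it, it had no UMI in either library. The related Ccl2 had 818 CPM and 448 CPM (665 CPM in the 36), and Ccl12 had 1141 CPM and 635 CPM (941 CPM in the 36), neither past 2-fold. Cxcl1, a neutrophil attractant, had 52 UMIs in 9.18% of transgenic macrophages and no UMI in wild type, at least 6.55-fold against 3 UMIs over the 36 cells. Gimap6, a GTPase of immune cells, had 84.9 CPM in transgenic and 11.4 in wild-type macrophages (17.1 CPM in the 36), and 77.9 CPM and 4.85 CPM in monocyte-type barcodes. Among MHC class II-high cells alone it had 2 UMIs in each library, too few for a ratio.

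Among genes lower in transgenic macrophages, Cd72, an inhibitory receptor known best from B cells, had 64.5 CPM in transgenic and 181 in wild-type macrophages (262 CPM in the 36), a log2 ratio of -2.01 (-2.50 to -1.53). It was found in 19.4% of transgenic and 55.6% of the 36 wild-type macrophages. The B cell genes Cd79a and Ms4a1 had no UMI in the macrophages of either library. In monocyte-type barcodes Cd72 had 95.9 CPM in the transgenic library and 11.1 CPM in wild type, the opposite order. Ly6e, a GPI-anchored surface protein, had 105 CPM in transgenic and 292 in wild-type macrophages (392 CPM in the 36). It was also lower in the other barcodes of the transgenic library, at 143 CPM against 311 CPM in wild type. Cd52, a small surface glycoprotein of leukocytes, had 333 CPM in transgenic and 626 in wild-type macrophages (879 CPM in the 36). It was among the genes higher in MHC class II-high cells, which were 28.6% of transgenic and 44.4% of the 36 wild-type macrophages. Over all processing settings, with MHC class II-high and low cells alone among them, the log2 ratio of Cd52 ran from -1.44 to -0.72. The part of the class shares in its difference was not tested.

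MHC class II genes were lower in transgenic macrophages as sums. Cd74 had 6005 CPM in transgenic and 8693 in wild-type macrophages (11285 CPM in the 36), a log2 ratio of -0.91, and H2-Aa, H2-Ab1 and H2-Eb1 had log2 ratios of -1.23, -1.15 and -1.25. Of 8 measured genes of MHC class II presentation, these 3 were past 2-fold lower, against 1.01% of all measured genes, and none was higher. The list median was -0.72 against 0.0048 over all measured genes. With all 38 wild-type barcodes the 3 were not past 2-fold and the list median was -0.29. Among MHC class II-high cells alone the libraries were closer, with Cd74 at 20688 CPM in transgenic and 20335 in wild-type cells and H2-Aa at 7900 CPM and 9425 CPM. The limit on these genes defines the high cells, so their levels there are not independent of it and nothing is concluded from them. Among low cells, which the limit on these genes defines, the list median ran the other way at 0.57, with Cd74 at 331 CPM in transgenic and 165 in wild-type cells.

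Most other groups did not stand out between the libraries. Without the 2 deep barcodes 3.25% of all measured genes were higher and 1.01% lower. At these shares a short list would hold few such genes or none. Of 10 measured complement genes and of 18 identity genes, none was past 2-fold in either direction, with list medians of 0.024 and -0.046. C1qa had 6015 CPM in transgenic and 3458 in wild-type macrophages (4809 CPM in the 36), C1qb 4045 and 3599 CPM (5113 CPM in the 36) and C1qc 3108 and 2422 CPM (3407 CPM in the 36). Of 24 lysosomal genes 1 was lower, the lipase Lipa, at 97.8 CPM in transgenic and 160 in wild-type macrophages (225 CPM in the 36), and none was higher. Of 13 genes of lipid handling, Fabp5, a fatty acid-binding protein, and Apoc1, an apolipoprotein, were higher, with log2 ratios of 1.35 and 1.13, and Lipa was lower. With all 38 wild-type barcodes, Trem2 also passed 2-fold (1.09), against 0.57 without the deep barcodes and -0.037 among MHC class II-low cells alone. So did Fcgr1, Lyz2, Abca1, Abcg1, Spp1, Cd86, Siglech, Nrp2, Osm, Nfkbid, Tnfaip3, Bst2, Ifi204, Ier3, Ly86, Ccl8 and Cxcl2, all higher with the deep barcodes and within 2-fold without them. Of 12 microglia-type genes, Sparc, a matrix protein, was higher at 301 CPM in transgenic and 97.3 in wild-type macrophages (114 CPM in the 36). It was found in 31.6% and 33.3% of cells, and was also present in the other barcodes at 235 and 340 CPM. Among MHC class II-high cells alone it had 34.7 CPM in transgenic and 61.9 in wild-type cells, from 9 and 12 UMIs (log2 ratio -0.80, -2.15 to 0.51).

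Of 12 chemokine genes, Ccl7 and Cxcl1 were higher and Cxcl14 was lower, with 69.9 CPM in transgenic and 111 in wild-type macrophages (162 CPM in the 36). None of 16 cytokine and NF-kB response genes, 7 interferon response genes, 21 immediate early genes, 9 heat shock genes, 6 Fc receptor genes, 8 MHC class I genes, 10 scavenging genes, 7 Lyve1-type genes or 11 pattern recognition genes was past 2-fold. Over all measured genes 3.25% were higher and 1.01% lower, so lists of this length say little by having none. Single genes of other lists passed it: the growth factor Gdf15 and the checkpoint receptor Havcr2 (TIM-3) were higher, with log2 ratios of 1.44 and 1.03, as were the transcription factor Bhlhe41 (1.03) and, in the cell cycle list, Stmn1, with 54.6% of its transgenic UMIs in the 3 barcodes with odorant receptor UMIs. Ccr2, in the monocyte list, was lower (-1.08), with a UMI in 16 of 98 transgenic and 4 of 36 wild-type macrophages. Nrros, a protein that myeloid cells use to present latent TGF-beta, was lower at 119 CPM in transgenic and 174 in wild-type macrophages (247 CPM in the 36). Gdf15 was found in 7.14% of transgenic and 5.56% of wild-type macrophages, so its ratio rests on few cells, and it had no UMI in MHC class II-high cells of either library.

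Some differences were shared with the rest of the library or came from a few barcodes. Cwc22, a splicing factor, had 181 CPM in transgenic and 47.7 in wild-type macrophages (54.0 CPM in the 36), and 239 CPM and 60.8 CPM in the other barcodes. Rpl29, a ribosomal protein, had 171 CPM and 425 CPM in the macrophages (464 CPM in the 36), and 160 CPM and 452 CPM in the other barcodes. The ribosomal pseudogene Rps18-ps6 had no UMI in transgenic macrophages and 142 CPM in the 36 wild-type macrophages, at least 44.1-fold lower in transgenic. In the other barcodes it had 0.0323 CPM in the transgenic library and 120 CPM in wild type. Counts of a pseudogene can be shared with its parent gene Rps18, which had 1560 CPM in transgenic and 1259 in wild-type macrophages, and this was not tested. The neuronal genes Map1b, Ncam1 and Fstl5 were among those higher in transgenic macrophages, but 79.8%, 68.8% and 69.6% of their UMIs came from the 3 barcodes with odorant receptor UMIs. Without these barcodes the log2 ratios were 1.08, 0.70 and 0.31, while Serinc3 stayed at 2.24 and Ccl7 at 1.90.

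Markers of other immune cells were scarce, and markers of secretory and red blood cells were low. The T and NK cell list summed to 1.07 CPM in transgenic and 0 in wild-type macrophages, with Cd3e, Cd3g, Nkg7 and Trbc2 at 0, and the 4 mast cell genes had no UMI. The neutrophil list summed to 191 CPM in transgenic and 193 in wild-type macrophages (264 CPM in the 36), against 247362 and 352992 CPM in neutrophil-type barcodes, which S100a8 and S100a9 chose. S100a8 and S100a9 are in this list and were also limited in the macrophages, so the rule itself bounded part of this sum. The secretory gene Bpifa1 had 138 CPM in transgenic and 42.0 in wild-type macrophages (51.2 CPM in the 36), against 1615 and 1489 CPM in free RNA, and the haemoglobin gene Hba-a1 64.5 and 15.3 CPM (19.9 CPM in the 36), against 3520 and 1566 CPM in free RNA. Cells with UMIs of mitotic genes were rare: 2 of 98 transgenic macrophages had 3 or more UMIs of 9 mitotic genes, and 1 of 38 in wild type, which was a deep barcode.

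Odorant receptor UMIs were set against those of other barcodes low in the neuronal genes Omp, Gap43 and Stmn2. They summed to 229 CPM in transgenic and 62.9 in wild-type macrophages, against 59.4 CPM and 61.0 CPM in those barcodes, and 159 of the 213 UMIs of the transgenic macrophages came from 3 barcodes. No other transgenic macrophage had more than 3. A UMI of any odorant receptor was found in 36.7% of transgenic (27.2 to 47.1%) and 55.3% of wild-type macrophages (38.3 to 71.4%). In the other barcodes low in neuronal genes the shares were 55.2% (51.3 to 59.1%) and 51.4% (47.4 to 55.4%), at median depths of 12648 and 11171 UMIs. After thinning to 3000 UMIs, the shares were 21.4% (13.8 to 30.9%) and 31.6% (17.5 to 48.7%) of macrophages against 18.9% (15.9 to 22.1%) and 20.4% (17.3 to 23.7%) of those barcodes, and the intervals overlapped in both libraries. The transgene feature had 4 UMIs in 3 transgenic macrophages (3.06%), against 4.84% of the other barcodes low in neuronal genes and 46.5% of barcodes with Omp at or over the limit. Of these 4 UMIs, 2 lay in the barcode with 21 odorant receptor UMIs. The transgene feature had none in 38 wild-type macrophages, which allows a share of up to 7.89%. The feature 10G4, named as in the wild-type strain label, was found in 12 transgenic and 6 wild-type macrophages.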

How the data were processed

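Single-cell RNA-seq (10x 3′ v3.1) was made of 1 transgenic and 1 wild-type olfactory epithelium. The authors deposited raw UMI counts per gene and barcode, not filtered to cells. Cell Ranger 6.1.1 and the build GRCm39 (mm39) are named per the submitters' processing notes, while Cell Ranger 4 is named per the file headers. The transgenic and wild-type tables list 2037787 and 1577106 barcodes, of which 1484206 and 1171736 hold a UMI.

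From these counts, quality-passing barcodes and C1q macrophages were picked by the limits given in the report, with no doublet removal in the main values. UMIs were summed over the macrophages of a library and divided by their total (CPM). Ratios are log2 values, transgenic over wild type, after adding 1 UMI to both sums, and have conditional Clopper-Pearson intervals, with exact Poisson intervals for levels and exact binomial ones for shares, all at 95%. A gene was measured at 20 CPM and 50 UMIs or more in 1 library and called at 2-fold or more (log2 of 1). Barcodes under 100 UMIs stood for free RNA. A fold against 0 UMIs is a bound from 3 UMIs over the group, and a share of 0 is given the limit of 3 cells of the group in place of an interval. No ratio is given where both sums are at or under 3 UMIs. PCR, dissociation and animal variation are outside all intervals. The calculation was tested on simulated counts. Monocyte-type barcodes passed the quality filter with C1q and Omp under 0.1%, S100a8 and S100a9 under 2%, at least 3 UMIs of Ccr2 and F13a1 and at least 10 of Tyrobp, Fcer1g and Lyz2. Neutrophil-type barcodes had S100a8 and S100a9 at 2% or more.

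The genes named are, by rule, the 4 highest of each list and list genes past 2-fold, the 15 genes with the largest ratios in each direction among genes at 50 CPM and in 20% of cells or more, the 20 with the largest ratio to the other barcodes at 200 CPM or more, the 15 that varied most among cells, and the added features and odorant receptors. From these, examples were chosen for the text, and genes outside the rule were chosen after their values were seen. The members and lists were chosen with earlier results of these data known. The limit of 50000 UMIs for deep barcodes, the MHC class II division and its comparison, the genes ranked without the deep barcodes, the pairs of genes correlated across cells, the mitotic genes, the Apoe limit, the barcodes low in Omp, Gap43 and Stmn2, and the limit of 10 odorant receptor UMIs were chosen after seeing the data. Promoter sequences are from RefSeq (GRCm38.p6) and were matched by symbol; C1qa is named only. Python 3.11.15, numpy 2.4.6, scipy 1.17.1, pandas 2.3.3, scanpy 1.11.5 and matplotlib 3.10.9 were used. Some genes that the naming rule or the lists cover are not reported here.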

Additional observations from a re-analysis of the deposited data

How the results depend on the processing

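Values here are median log2 ratios of a list, log2 ratios of a gene whose sign turned, or counts of genes at least 2-fold higher or lower in transgenic macrophages. List medians moved by more than the spread among the list's genes, and gene ratios changed sign, mainly where a setting removed a deep wild-type barcode or left few cells. Without the 2 deep barcodes 29 genes were lower, the medians were complement 0.024, identity -0.046, lysosome 0.074, scavenging -0.081, Fc receptors -0.10, MHC class I -0.13, microglia-type -0.21, immediate early -0.16, monocyte -0.37, transcription factors -0.14 and pattern recognition -0.066, and the genes that turned were Cyp2g1 1.503, Dcn 2.88, Cyp2a5 0.84, Gpx6 0.011, Gclm 0.022, Gstm1 0.50 and Qsox1 2.00. Also leaving out the 3 transgenic barcodes with odorant receptor UMIs gave 69 higher and 27 lower genes, the medians complement 0.064, identity -0.0058, scavenging -0.061, Fc receptors -0.058, MHC class I -0.088 and immediate early -0.13, and the genes Cyp2g1 1.501, Dcn 2.93, Cyp2a5 0.86, Gpx6 0.058, Gclm 0.069, Gstm1 0.52 and Qsox1 2.05. Requiring C1q at 0.3% gave 59 higher and 22 lower genes, the medians complement 0.066, identity -0.032, lysosome 0.076, scavenging -0.044, MHC class I -0.083, microglia-type -0.22, cytokines 0.25 and immediate early -0.14, and the genes Nrp2 -0.52, Cyp2g1 1.28, Dcn 2.86, Cyp2a5 0.76, Gclm 0.20, Gstm1 0.40 and Qsox1 1.90. Leaving out the 5% highest Scrublet scores gave 17 lower genes, the median cell cycle 0.36, and the genes Cyp2g1 2.71, Dcn 2.60, Cyp2a5 1.22, Gpx6 0.035, Gclm 0.12 and Gstm1 0.59. A mitochondrial limit of 5% left 49 transgenic and 12 wild-type cells, with a wild-type share of 2.01%, 302 higher and 20 lower genes, the medians complement 0.91, identity 0.94, lysosome 1.00, scavenging 0.61, Fc receptors 0.75, lipid handling 1.48, monocyte -1.24, cell cycle 0.81 and iron 0.89, and the genes Cyp2g1 1.81, Cyp2a5 1.69, Gpx6 0.69, Gclm 0.53, Gstm1 0.75 and Por 0.034. In MHC class II-low cells alone 29 genes were lower, with the medians complement 0.053, identity -0.057, lysosome -0.20, scavenging -0.21, MHC class II 0.57, microglia-type -0.54, lipid handling -0.0040, immediate early -0.39, monocyte 3.29, iron -0.28 and pattern recognition -0.27, and the genes Trem2 -0.037, Cbr2 0.28, Cyp2g1 1.496, Dcn 3.16, Cyp2a5 0.20, Gpx6 0.23, Gclm 0.16, Gstm1 0.23 and Qsox1 1.61. In MHC class II-high cells alone 8 genes were higher and 18 lower, with the medians lysosome 0.039, scavenging -0.49, Fc receptors -0.058, MHC class I -0.062, microglia-type -0.21, interferon -0.032, monocyte -1.45, cell cycle 0.51 and inhibitory receptors -0.62, and the genes Sparc -0.80, Nrp2 -1.42, Cyp2g1 0.80, Fstl5 -0.20, Cyp2a5 1.39, Wfdc18 0.027, Gstm1 0.16 and Qsox1 1.90. Averaging CPM per cell gave the medians complement 0.067, identity 0.049, lysosome 0.025, scavenging 0.058, MHC class I -0.052, microglia-type -0.31 and cytokines 0.27, and the genes Dcn 0.17 and Qsox1 0.41. A minimum of 1000 UMIs raised the transgenic share to 6.24%, a mitochondrial limit of 20% gave MHC class I 0.013, and a C1q limit of 0.05% gave monocyte -0.37. Adding 10 UMIs gave 63 higher genes, and dropping the filter gave 1239 higher and 2612 lower genes with cell cycle -0.83. The cause was not tested beyond the construction of each setting. Over all settings, 81 list medians, shares and counts moved and 449 did not, and of the gene ratios 52 changed sign, 902 moved and 2833 stayed within their counting interval, with none given where both sums were at or under 3 UMIs. A change of sign was counted only for genes measured and past 2-fold with all barcodes, a condition set after seeing the values. The settings on deep, odorant receptor and MHC class II barcodes were added after seeing the data. Median-of-ratios scaling shifted all ratios by 0.12. No paired analysis was possible because each genotype has 1 library and the replicate numbers are only names, and no library could be left out. With 98 transgenic and 38 wild-type cells, genes near 20 CPM rest on few UMIs, and Ccl7, Gdf15 and Cxcl1 on few cells.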
